A study of Mus musculus with 142 samples.

Results

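The mouse genes Asph and Gdf6 lie next to each other on chromosome 4 in a stretch that replicates earlier on the CAST (castaneus) homolog than on the musculus homolog. The windows described here are the 50 windows of 50 kb from 8.5 to 11 Mb of chromosome 4 (mm10), out of 49264 windows of the 19 autosomes. The 10 windows from 9.45 to 9.95 Mb, which hold nearly all of Asph and all of Gdf6, are called the core. The locus was picked for its difference between homologs, so that this difference is described below without a test.

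The cells were F121-9, hybrid mouse embryonic stem cells (mESCs) from a cross of a musculus strain with castaneus, grown in 2i and LIF. All lines derive from them by CRISPR-mediated deletions on 1 or both homologs in or near the Dppa2/4 domain of chromosome 16. In most labels musculus is the deleted homolog and CAST the unmodified control, while some name part of the deletions on CAST too. No label names a deletion on chromosome 4. Replication timing (RT) was measured by E/L Repli-seq as log2 of reads from early over late S phase (BrdU for 2 h), separately for each homolog, where positive values are early. The table held 66 libraries from 53 clones of 26 cell lines, with 11 clones grown in 2 or more cultures, which were averaged.

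For 1 comparison the clones were split by their genotype. COSN123, a deletion of the 3 sites of element C bound by Oct4, Sox2 and Nanog, was carried by 24 clones of the 12 lines COSN123, A.COSN123, AOSN.COSN123, Z.AOSN.COSN123, BOSN1.COSN123, BOSN12.COSN123, A.BOSN1.COSN123, A.BOSN12.COSN123, AOSN.BOSN12.COSN123, A.BOSN12.BTSS.COSN123, A.B.COSN123 and AOSN.B.COSN123. The other 29 clones came from the 14 lines A.COSN12, AOSN.COSN12, COSN1, COSN12, COSN1.2.8k, CL20k, CR11.8k, CR13.4k, CR14.6k, BTSS, CTSS, BTSS.CTSS, ATSS.BTSS.CTSS and Z.B.C. In these names A, B and C are the control elements of that domain, OSN and its digits are sites bound by the same 3 factors, TSS is a transcription start site, Z is a site outside A, and CL and CR are the left and right parts of C. No unedited line had a column. COSN123 itself was 1 clone, labelled with its deletion on musculus and with CAST as the unmodified control. Some lines built on it also have B named as deleted on CAST. The study put its further deletions into the COSN123 line, so the 24 clones share a founder and are not independent of each other. The other clones are related in part as well. The study made both COSN12 and COSN123 from a COSN1 line, and BTSS.CTSS in a CTSS background. In its text the CTSS deletion lies on castaneus in clone C4 and on musculus in clone C12. The study's text has the 3 sites of C removed also in CR13.4k and CR14.6k, and Z.B.C lacks the whole element, so 6 of the other clones lacked these sites without that founder.

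The genome replicates in large domains, each with its own time in S phase, and early domains tend to hold active genes and open chromatin. Between an early and a late domain lies a gradient in RT, where forks from the early side run into later DNA. In hybrid cells both homologs are read from the same nuclei and the same library. Asph encodes an aspartate beta-hydroxylase of the endoplasmic reticulum that acts on EGF-like domains, and its locus also gives the calcium-handling proteins junctin and junctate. Gdf6 encodes a ligand of the bone morphogenetic protein family with roles in the skeleton and the eye. RT was measured here, not transcription.

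All chromosomes had the length of the GRCm38 assembly. A chromosome without values on 1 homolog was found in 13 libraries of 10 clones (6 of the COSN123 clones and 4 of the others), but chromosome 4 was present on both homologs in every library. In the 50 windows, 13 of 6900 values were missing. The pluripotency loci had a positive mean RT on both homologs. It was 1.17 ± 0.21 on musculus (SD, n = 52 clones) and 1.19 ± 0.24 on CAST (n = 51) for Pou5f1 and 1.24 ± 0.17 and 1.22 ± 0.19 (n = 52 on each) for Sox2. At these 2 loci CAST minus musculus was 0.02 and −0.03. Nanog and Zfp42 had means of 1.06 and 1.02 on musculus and of 1.10 and 0.77 on CAST, and Dppa2 and Dppa4, which lie in the deleted domain, of 0.46 and 0.38 on musculus and of 0.98 and 0.90 on CAST. CAST minus musculus was 0.06 at Nanog, −0.25 at Zfp42 and 0.52 at both Dppa2 and Dppa4. Musculus lay below 0 in 9 clones at Dppa2 and in 8 at Dppa4. Musculus is the deleted homolog there in most labels, and the part of the deletions in these values was not tested.

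By the mean of the 10 core windows, musculus was late and CAST was early in every clone. The musculus level over the 10 windows went from −0.995 over a median of −0.61 to −0.12 among the 53 clones, with a mean of −0.57 ± 0.17 (SD). The CAST level went from 0.24 over a median of 0.75 to 1.10, with a mean of 0.75 ± 0.19. Neither range reached 0, and the highest musculus clone stayed below the lowest CAST clone. In single core windows some clones crossed 0, with musculus up to 0.19 (9.7 to 9.75 Mb) and CAST down to −0.31 (9.45 to 9.5 Mb). CAST minus musculus was 1.32 ± 0.13 (SD, n = 53 clones), from 1.06 in the clone of BTSS to 1.64 in clone B7 of A.COSN123. Set against 41160 windows with values in at least 40 clones on each homolog, the core mean lay above 34.1% of windows on musculus and above 65.8% on CAST. The genome-wide medians were 0.08 and 0.10, and the homologs lay on opposite sides of them. A musculus mean below 0 with a CAST mean above 0 was found in 16 of the 50 windows, all 10 of the core included, against 3.48% of windows genome-wide, a share that the choice of the locus again fixes.

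Asph (minus strand, 9448069 to 9669344, 221276 bases) had a mean RT of −0.67 ± 0.18 on musculus and 0.59 ± 0.20 on CAST over its 6 windows (SD, n = 53). Its musculus values ran from −1.05 to −0.25 around a median of −0.68, and its CAST values from 0.07 to 0.98 around a median of 0.57. Gdf6 (plus strand, 9844372 to 9862345, 17974 bases) had −0.53 ± 0.20 on musculus and 0.80 ± 0.22 on CAST over 2 windows. Its musculus values ran from −1.03 to −0.05 (median −0.54) and its CAST values from 0.21 to 1.30 (median 0.79). The difference was 1.25 ± 0.16 at Asph and 1.33 ± 0.15 at Gdf6, and the ranges of the homologs did not overlap at either gene. Within Asph, which is read from right to left, both levels rose towards its transcription start. At the left end (9.45 to 9.5 Mb) CAST had a mean of 0.27 and musculus of −0.85, and at the right end (9.65 to 9.7 Mb) CAST had 1.00 and musculus −0.35.

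**Figure D1:**
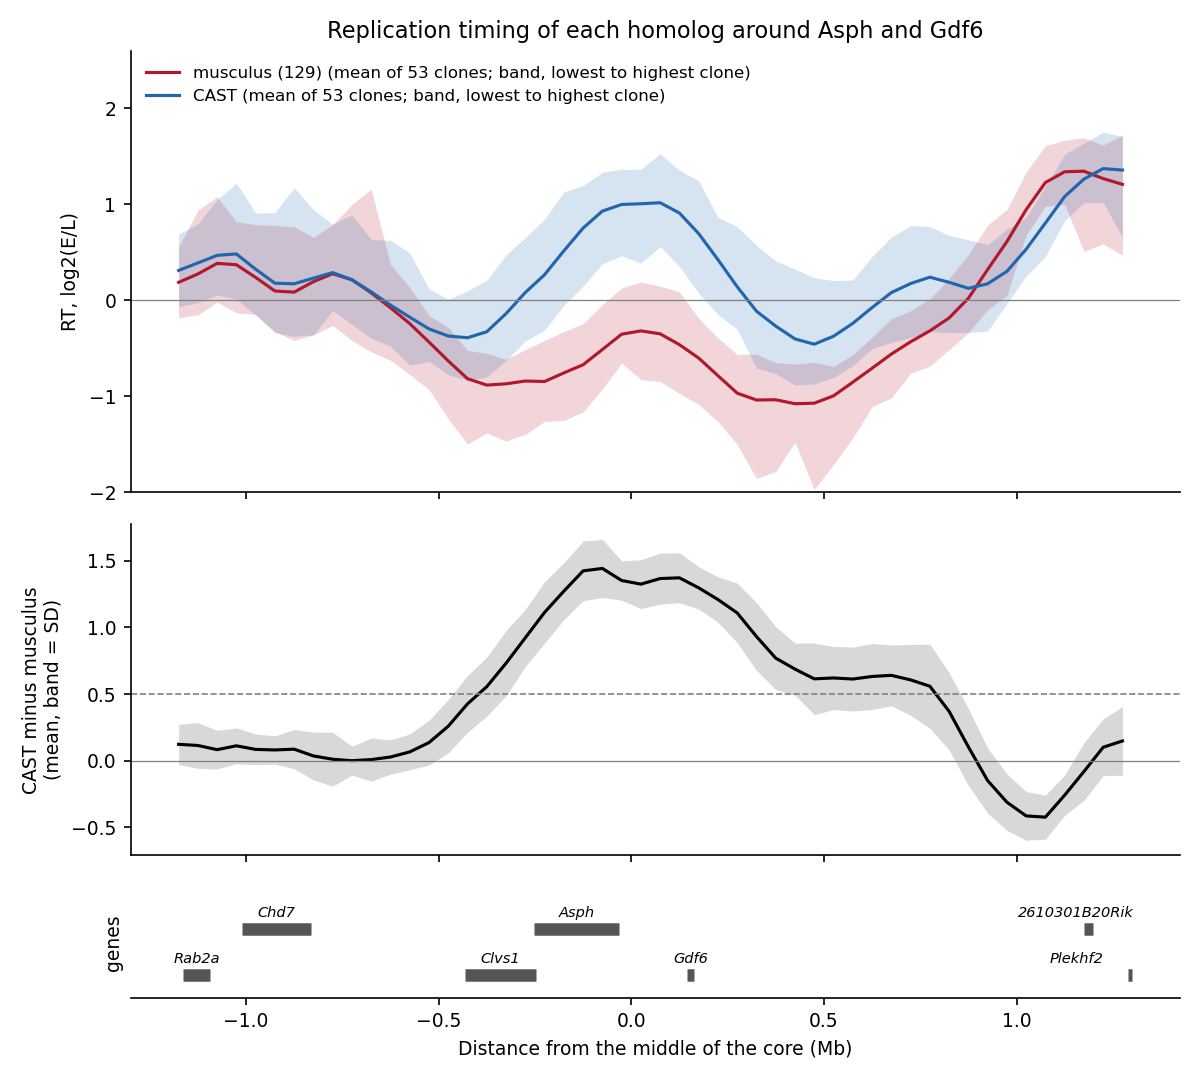
RT of musculus (red) and CAST (blue) per 50 kb window as log2(E/L) against the distance in Mb from the middle of the core (top; line, mean of 53 clones; band, lowest to highest clone), CAST minus musculus with its SD over clones and the level of 0.5 as a dashed line (middle), and protein-coding genes (bottom). Both homologs peak close to the middle of the core, with CAST near 1.02 and musculus near −0.32, and the difference is negative from 10.6 to 10.9 Mb and positive again in the last 2 windows.

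Both homologs had a local maximum in the gap between Asph and Gdf6, but the rise to it from the left was not parallel. From 9.3 to 9.5 Mb the musculus window means stayed between −0.88 and −0.84, while those of CAST rose from −0.33 to 0.27. The mean CAST curve was highest in the window from 9.75 to 9.8 Mb (1.02) and the mean musculus curve in that from 9.7 to 9.75 Mb (−0.32). In single clones, between 9.2 and 10.2 Mb, the CAST maximum lay in windows starting at 9.6 to 9.8 Mb in all 53 clones. The musculus maximum lay in windows starting at 9.65 to 9.85 Mb in all but 2 clones, where it fell on the left edge at 9.2 Mb. The maxima of both homologs were at most 1 window apart in 39 of 53 clones and at most 2 apart in 46. At its maximum CAST had 1.12 ± 0.19 and musculus −0.26 ± 0.18 (SD, n = 53), a difference of 1.38 ± 0.17. In the gap between the genes the annotation has the noncoding transcript 4930412C18Rik.

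The curves met on the left over the gene Chd7, which encodes a chromatin remodeller, and its downstream flank. Chd7 had a mean of 0.20 ± 0.20 on musculus and 0.28 ± 0.22 on CAST, and Rab2a, a small GTPase of traffic between endoplasmic reticulum and Golgi, 0.28 ± 0.18 and 0.39 ± 0.16 (SD, n = 53). The differences of 0.08 ± 0.09 and 0.11 ± 0.11 were about as large as their own SD over clones, although CAST was the earlier homolog in 46 of 53 clones at both genes. From 8.95 to 9 Mb the mean difference was 0.00, with CAST earlier in 29 clones and musculus in 24. Clvs1, the gene of the clathrin-associated protein clavesin 1, spans the rise of the difference. Over its 5 windows musculus had −0.85 ± 0.16 and CAST −0.10 ± 0.20, and CAST lay above 0 in 13 of 53 clones.

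The stretch in which the mean difference was at least 0.5 ran from 9.3 to 10.5 Mb, 24 windows or 1.2 Mb. Genome-wide 3.31% of 39612 windows with both homologs in at least 40 clones reached that level, a share printed as a background only since the rule used this difference. Just inside the stretch the windows starting at 9.3 and 10.45 Mb both had 0.56, and just outside those starting at 9.25 and 10.5 Mb had 0.43 and 0.37. CAST was earlier than musculus in every clone with both values in 23 of the 24 windows, and the 24th, at 10.45 Mb, had CAST earlier in 48 of 53. Such windows made up 5.21% of the genome-wide set. The difference peaked at 1.44 ± 0.22 over Asph (9.6 to 9.65 Mb) and stayed above 1 from 9.45 to 10 Mb. It then fell to a plateau between 0.56 and 0.69 from 10.1 to 10.5 Mb, a region with no protein-coding gene, in which the noncoding 1700123O12Rik begins to overlap the last window.

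On this plateau the homologs ran in parallel. Musculus rose from −1.07 at 10.15 Mb to −0.32 at 10.45 Mb, and CAST rose from −0.46 to 0.24 over the same windows. CAST varied widely between clones here, as the SD of its level reached 0.29 at 10.4 Mb against 0.20 to 0.25 in the core windows. Taken clone by clone, the stretch of at least 0.5 began between 9.2 and 9.45 Mb (median 9.3 Mb) and had a median length of 0.95 Mb, from 0.55 to 1.3 Mb. Its right end fell between 10 and 10.35 Mb in 33 clones and between 10.45 and 10.6 Mb in 20, with none ending at 10.4 Mb. These ends are set by the first window under 0.5, which was often a short dip. In 25 of the 33 clones the difference was again at least 0.5 in 1 or more later windows before 10.5 Mb (8 of 11 COSN123 clones and 17 of 22 others). Over the 8 plateau windows the mean difference was 0.62 ± 0.18 (SD, n = 53), from 0.17 to 0.94.

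**Figure D2:**
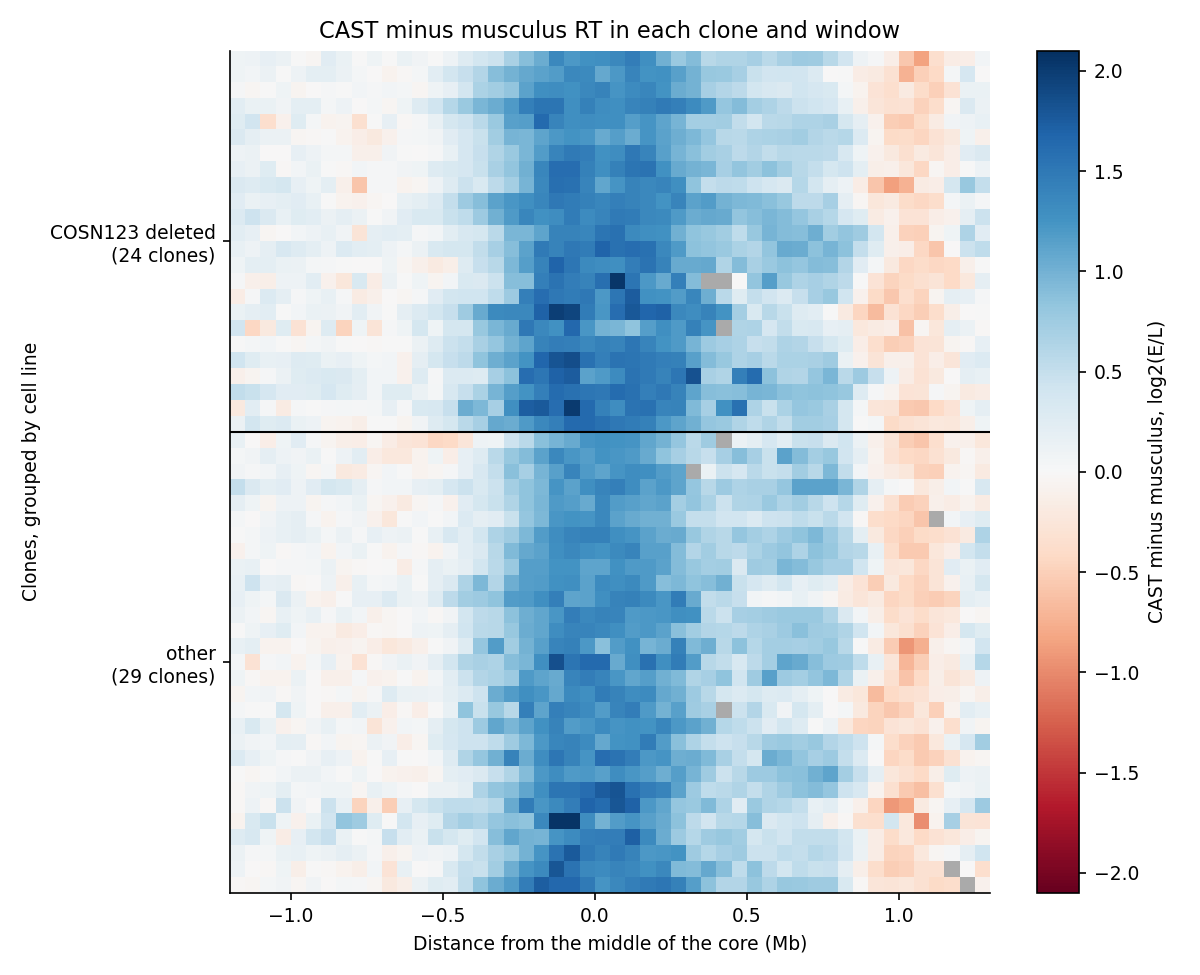
CAST minus musculus in log2(E/L) for each of 53 clones (rows, grouped by cell line, COSN123 lines above the black line) in each of 50 windows (columns, distance in Mb from the middle of the core). Blue is CAST earlier, red musculus earlier and grey a missing value. The core is blue in every clone, the plateau to its right varies from clone to clone, and a red band follows it.

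To the right of the stretch the order of the homologs turned over. In the 5 windows from 10.6 to 10.85 Mb musculus had a mean of 0.89 ± 0.10 and CAST of 0.58 ± 0.11, a difference of −0.31 ± 0.11 (SD, n = 53), from −0.50 over a median of −0.32 to −0.01. By this mean musculus was the earlier homolog in all 53 clones. The 5 windows were grouped for that order, and in the one at 10.6 Mb CAST was earlier in 14 of 53 clones. The window means reached −0.41 and −0.42 in the windows starting at 10.7 and 10.75 Mb. Only in these 2 of the 50 was musculus earlier in every clone, which is near the share genome-wide (4.37% of windows). The 5 windows lie on the steep flank of the early domain on the right. There musculus went from 0.02 (10.55 Mb) to 1.34 (10.8 Mb) and CAST from 0.12 to 1.08. Inside that domain the order was mixed. The window of 2610301B20Rik had 1.34 on musculus and 1.26 on CAST, with musculus earlier in 36 of 52 clones, and Plekhf2, the gene of an endosomal PH and FYVE domain protein, had 1.16 and 1.34, with CAST earlier in 42 of 53.

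The GC content of the core windows was 42.3% on average (40.9% to 44.8%), against a median of 41.9% over 41160 windows. Across the 50 windows it went from 38.5% to 45.9%, and none of them held an assembly gap.

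Among 159 stretches of 3 or more windows genome-wide with a mean difference of at least 0.5 towards CAST, the one around Asph and Gdf6 was the longest and had the largest summed difference (23.2). Of the next 4 by that sum, 3 lay on chromosome 13 at 56.65 to 57.55 Mb over Trpc7, Spock1 and Smad5 (18.8), on chromosome 17 at 72.55 to 73.6 Mb over Alk and Galnt14 (18.2) and on chromosome 13 at 84.7 to 85.6 Mb over Rasa1 and Ccnh (17.9). By its largest single window (1.44) the stretch of chromosome 4 had rank 3, and that of Trpc7 (1.60) rank 1. Its mean level was −0.72 on musculus and 0.24 on CAST, and that of the Trpc7 stretch −0.30 and 0.75. These ranks follow from the rule and were not tested.

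Trpc7, which encodes a cation channel, had −0.34 ± 0.21 on musculus and 0.92 ± 0.18 on CAST (SD, n = 52 clones each), with the same order as at the core and the mean of each homolog above its value there. The genes outside chromosome 4 with RT most like that of Gdf6 over the 106 values of all clones and both homologs were Shcbp1, Vmn1r32 and Mad2l1, with root mean square distances of 0.27, 0.28 and 0.30. Their means were −0.37, −0.31 and −0.31 on musculus and 0.92, 0.72 and 0.90 on CAST. Asph had Syne1, Tchh and Colec12 closest, at 0.31, 0.31 and 0.32. They were compared with 16985 genes each, and all 3 had a smaller gap between homologs than Asph, with CAST means of 0.46, 0.36 and 0.54.

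The clones were next compared with each other. The difference at the core had an SD of 0.13 over all 53 clones, of 0.11 between clones of the same line (46 clones of 19 lines) and of 0.12 between cultures of the same clone (24 libraries of 11 clones). For the CAST level the SD between all clones was 0.19, against 0.11 within lines and 0.10 between cultures, and for musculus it was 0.17 against 0.12 and 0.09. The levels of both homologs thus had a larger SD over clones than over cultures, and their difference had a similar one. Over windows, the median SD of the core was 0.20 on musculus and 0.22 on CAST, and the medians genome-wide were 0.20 and 0.20.

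Line means of the difference went from 1.06 (BTSS, 1 clone) to 1.52 (AOSN.COSN123, 2 clones). Lines differed beyond the spread of their clones in a permutation test (F = 2.36, p = 0.0217, 100000 resamples, 19 lines with 2 or more clones), and CAST was earlier in 46 of 46 clones of these lines. The test permuted clones as if independent, although some lines share a founder. The SD within lines (0.11) was also no larger than that between cultures of a clone (0.12). The clones with the latest core were the same on both homologs, CL20k clone 85 (−0.995 on musculus, 0.28 on CAST) and BTSS clone A10 (−0.82 and 0.24). The clones with the earliest musculus core were AOSN.B.COSN123 clone 5A.6 (−0.12, with 1.02 on CAST) and CR13.4k clone 2-49 (−0.17, with 1.01 on CAST).

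**Figure D3:**
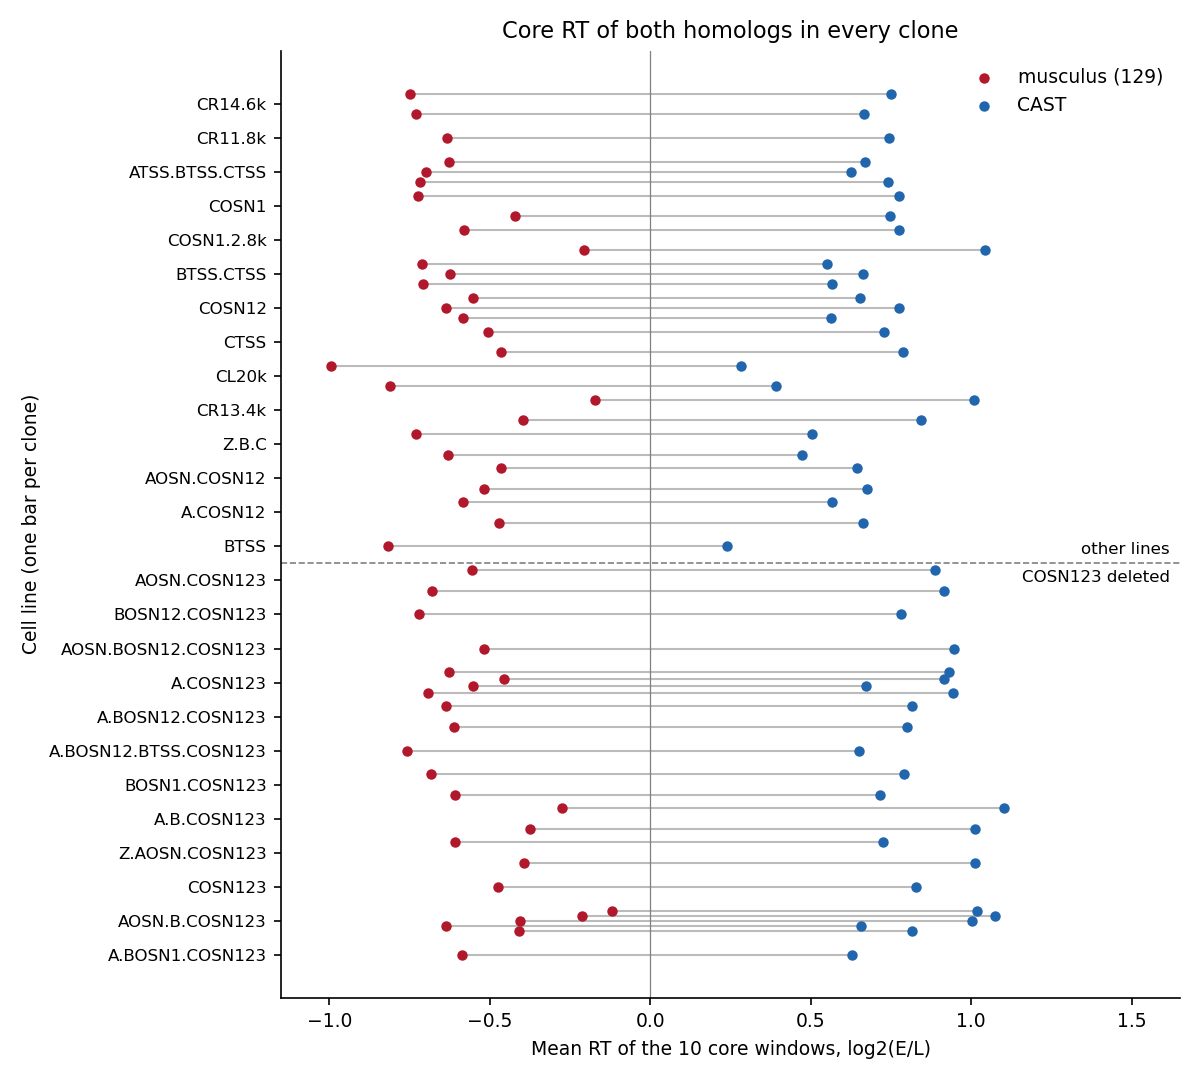
Mean RT of the 10 core windows as log2(E/L) on musculus (red) and CAST (blue) in each of 53 clones (bars), ordered by cell line, with lines of the COSN123 deletion below the dashed line. All musculus points lie between −0.995 and −0.12 and all CAST points between 0.24 and 1.10.

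Across clones, the levels of both homologs at the core moved together (Pearson's r = 0.73, permutation p = 1e-05, Spearman's rho = 0.62, p = 1e-05, n = 53 clones, adjusted p = 4e-05 for each over the 4 relations computed). This p is the smallest that 100000 resamples can give. Without the 2 clones farthest from the musculus median r was 0.71, within COSN123 clones 0.69 (n = 24) and within the others 0.78 (n = 29). Both levels come from the same libraries and share their sorting and normalization. The permutation tests of all 4 relations treat clones as independent, although some share a founder. Window by window, r had a median of 0.60 in the core and of 0.67 over 18832 windows with values in every clone, so that the core was not above the rest.

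The difference at the core went along with that at Trpc7 (r = 0.40, permutation p = 0.00307, adjusted p = 0.00614, rho = 0.41, p = 0.00306, adjusted p = 0.00612, n = 51 clones), and r was 0.43 without the 2 farthest clones. Within the other clones r was 0.32 and did not pass (permutation p = 0.0906, n = 29), and within COSN123 clones it was 0.60 (permutation p = 0.00343, n = 22). The COSN123 clones share a founder, which this p-value does not take into account. Trpc7 was taken as another locus earlier on CAST, and both differences come from the same libraries. The relation was not computed for windows genome-wide, so it is not known whether it is particular to these loci. Between the core and the windows right of the Dppa domain (chromosome 16, 49.65 to 50.05 Mb) r was 0.18 (permutation p = 0.19, adjusted p = 0.19, rho = 0.17, p = 0.22, adjusted p = 0.223, n = 52), and between the core and the Dppa domain (48.2 to 48.6 Mb), which holds the deletions, 0.19 (p = 0.169, adjusted p = 0.19, rho = 0.17, p = 0.223, adjusted p = 0.223, n = 52). Without the 2 farthest clones these were 0.05 and 0.16. Neither passed over all clones, and neither kept its value within the groups. Within the other clones (n = 28) the relation to the windows right of Dppa was 0.39 (permutation p = 0.043). That to the Dppa domain turned to −0.42 there (permutation p = 0.0252). By rank neither passed in these clones (rho = 0.35, permutation p = 0.0692, and rho = −0.36, permutation p = 0.0645). Within COSN123 clones (n = 24) r was −0.0153 and −0.00992 for these relations. The p-values within groups were not adjusted. By most labels the difference at the Dppa domain sets a deleted musculus homolog against an unmodified CAST homolog.

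COSN123 clones had an earlier core on CAST, the homolog without the COSN123 deletion in their founder, than the other clones. Their CAST level went from 0.63 over a median of 0.86 to 1.10 (mean 0.86 ± 0.14, n = 24) and that of the others from 0.24 over a median of 0.67 to 1.04 (mean 0.66 ± 0.18, n = 29). The ranges overlapped widely, and the means differed by 0.20 (permutation p = 4e-05). The musculus level of the 2 groups was −0.52 ± 0.17 and −0.60 ± 0.17, a difference of 0.08 that did not pass (permutation p = 0.108). It passed without COSN1.2.8k (0.09, permutation p = 0.049) or CR13.4k (0.10, p = 0.0283). CAST minus musculus was 1.39 ± 0.12 in COSN123 clones and 1.26 ± 0.12 in the others, 0.12 apart (permutation p = 0.00059). With cell lines in place of clones (12 against 14) the CAST level differed by 0.18 (permutation p = 0.00666) and the difference by 0.14 (p = 0.00192). These p-values treat related clones as independent and are not adjusted over the genome.

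The 6 clones that lacked the 3 sites of C without the COSN123 founder had CAST core levels of 0.84 and 1.01 in CR13.4k, 0.67 and 0.75 in CR14.6k and 0.47 and 0.50 in Z.B.C. These spread over most of the range of all clones, with a mean of 0.71 ± 0.20 (SD, n = 6). It lay 0.15 below that of the COSN123 clones (exact permutation p = 0.0384, adjusted p = 0.212 over 6 comparisons) and 0.06 above that of the remaining 23 clones (exact permutation p = 0.463, adjusted p = 0.728). Their CAST minus musculus was 1.28 ± 0.15, against 1.39 in COSN123 clones (exact permutation p = 0.0708, adjusted p = 0.212) and 1.26 in the remaining clones (exact permutation p = 0.747, adjusted p = 0.747). None of the 6 comparisons passed after adjustment, the 2 of the musculus level included, and the 6 clones came from 3 lines only. Without the 6 clones COSN123 clones were 0.21 higher on CAST (24 against 23, permutation p = 2e-05), and with the 6 counted among the clones lacking the sites the difference was 0.18 (30 against 23, permutation p = 0.00017).

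Window by window, limma called 11 of the 50 CAST windows at an adjusted p of at most 0.05, all earlier in COSN123 clones, against 0.501% of 46325 windows genome-wide. They formed 2 runs, 9.35 to 9.6 Mb over the end of Clvs1 and the left part of Asph, and 9.85 to 10.15 Mb from Gdf6 to the right. The estimates went from 0.22 to 0.31 in the first run and from 0.21 to 0.32 in the second, with SEs of 0.05 to 0.06. Between the runs, at the maximum of the curve, the 5 windows from 9.6 to 9.85 Mb had estimates of 0.09 to 0.19 and did not pass (adjusted p from 0.11 to 0.604). Neighbouring windows share reads through the smoothing, so that the 11 windows are not separate observations.

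The largest estimate was that of the window from 10 to 10.05 Mb (0.32 ± 0.05, SE, limma adjusted p = 0.000867). There COSN123 clones had CAST values from −0.41 over a median of 0.07 to 0.57, and the others from −0.71 over a median of −0.25 to 0.02. At the maximum, from 9.7 to 9.75 Mb, the medians were 1.10 and 1.00 with ranges of 0.61 to 1.36 and 0.39 to 1.37, an estimate of 0.09 ± 0.06 (limma adjusted p = 0.604). The windows from 10.15 Mb on, which hold the rest of the plateau and the flank, had CAST estimates between −0.01 and 0.18 and none passed. On musculus, limma called 0 of 50 windows, against 1.27% of 46253 windows genome-wide, with estimates from −0.09 to 0.14. An unadjusted limma p of at most 0.05 was found in 5 of the 50, against 14% of windows genome-wide.

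For CAST minus musculus, 2 of the 50 windows passed, against 0.278% of 46062 genome-wide. These were 9.5 to 9.55 Mb in Asph (0.23 ± 0.05, SE, limma adjusted p = 0.0205) and 9.85 to 9.9 Mb at Gdf6 (0.16 ± 0.04, adjusted p = 0.0425). In the first, the difference went from 1.04 over a median of 1.39 to 1.76 in COSN123 clones and from 0.88 over a median of 1.16 to 1.73 in the others.

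**Figure D4:**
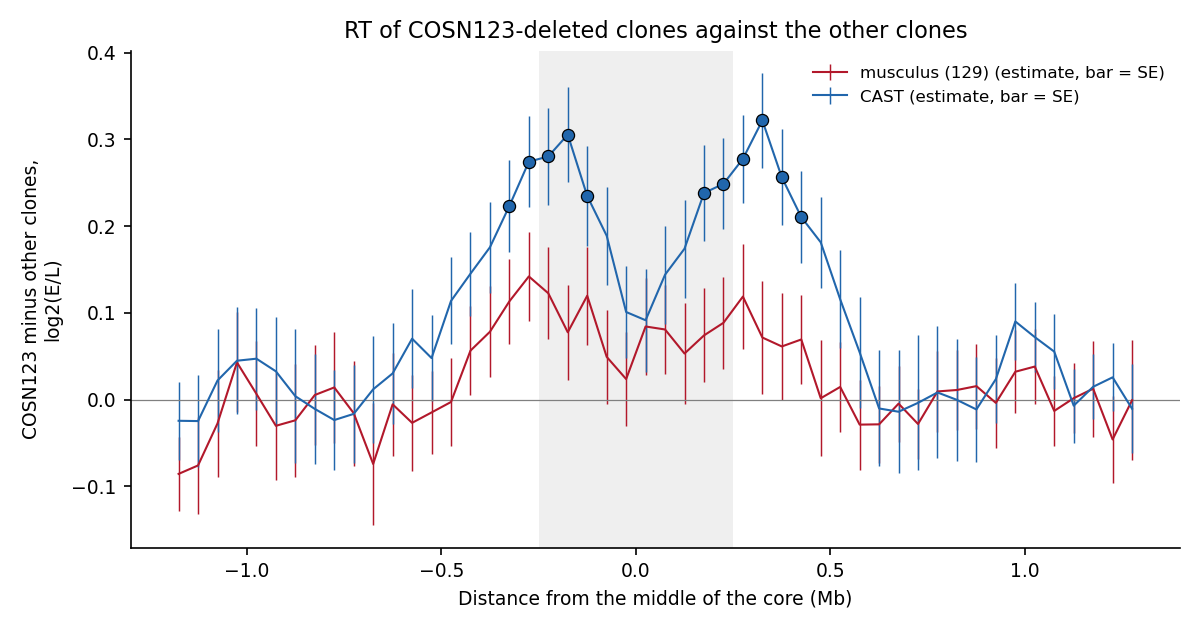
Difference in log2(E/L) between 24 COSN123 clones and 29 other clones (limma estimate, bars are SE) per window on musculus (red) and CAST (blue) against the distance in Mb from the middle of the core (grey band). Filled points mark windows with an adjusted p of at most 0.05; all 11 are on CAST, on both slopes of the curve.

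The window counts depended on the cell lines included. The count on CAST was 3 without AOSN.B.COSN123 (0.123% of windows genome-wide), 4 without A.COSN123 (0.137%) and 7 without either A.B.COSN123 (0.555%) or Z.B.C (0.358%). It was 0 with cell lines in place of clones, where 4 of 46080 windows passed in the whole genome. With cell lines 16 of 50 had an unadjusted limma p of at most 0.05, against 6.8% of windows genome-wide. The 2 windows of the difference were 0 without A.COSN123, 1 without each of 12 other lines in turn, 4 without either A.BOSN1.COSN123 or CR14.6k and 0 with cell lines. Genome-wide the share called for the difference was 0.128% to 0.794% with a line left out and 0.00437% with cell lines. With any 1 line left out, the core mean on CAST was 0.18 to 0.22 higher in COSN123 clones (largest permutation p = 0.00026). The overall SD of a CAST profile was 1.01 ± 0.04 in COSN123 clones and 0.99 ± 0.06 in the others. With each profile divided by its SD the count on CAST was 11 (0.721% genome-wide) and that of the difference 0 (0.258%).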

How the data were processed

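Values were E/L Repli-seq profiles of F121-9 mESC clones. Cells were labelled by the authors with 100 µM BrdU for 2 h. Reads were trimmed (TrimGalore), aligned with bowtie2 to mm10 with masked SNPs, assigned to a homolog by SNPsplit, cleared of duplicates (Samtools) and counted per 50 kb with bedtools. The deposited values are log2 ratios of early to late counts after scaling, quantile normalization and 300 kb loess smoothing by the authors. Tool versions are not given in the sources used here. Musculus is the 129 homolog. Depth per library is unknown, and a profile had values in 73.8% to 93.8% of windows.

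All 138 columns were used, with the homolog taken from their names. Repeat runs (3 libraries) and cultures of a clone were averaged. A further 10 samples (5 libraries) without a column were not analysed here. Values were not transformed. COSN123 clones were compared with the others by limma per window (at least 3 clones in each group, Benjamini-Hochberg over all windows, threshold 0.05) and by two-sided permutation for core means. Replicates are clones, and cultures of 1 clone are technical. Where labels do not say more, p-values measure the spread between these clones only. The relations and the F ratio of lines were tested by permutation (100000 resamples). Both were tested on simulated data. Alternatives changed the unit, windows, threshold, centring, shrinkage, missing values, clones and lines. Cell lines as unit and lines left out in the window tests, the scaling by SD, the 6 clones of CR13.4k, CR14.6k and Z.B.C apart and the core tests of single homologs were added after the data were seen.

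Genes were taken from GENCODE vM21, GC content from GRCm38. Named genes are Asph, Gdf6, all protein-coding genes of the 50 windows, Trpc7, the 3 genes nearest in RT to Asph and to Gdf6, and the 5 stretches with the largest sum (up to 4 of their genes are named), 1 of which is not reported here. The locus, windows and lists were chosen with earlier results of these data known. Analyses used Python 3.11.15, numpy 2.4.6, pandas 2.3.3, scipy 1.17.1, matplotlib 3.10.9, R 4.3.3 and limma 3.58.1.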

Additional observations from a re-analysis of the deposited data

Results flagged for a closer look

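The core of COSN123 clones differed from that of the other clones on CAST, by 0.20 (24 against 29 clones), and in CAST minus musculus, by 0.12, in permutation tests of the difference itself. The COSN123 lines share a founder clone, and 6 of the other clones lacked the same sites without it, with a CAST core of 0.71 ± 0.20 (SD). No comparison of these 6 clones with either group passed after adjustment over 6 comparisons, and the parts of founder and deletion were not settled. Clone C9 of A.COSN123 had a CAST core of 0.67, far from the other 3 clones of its line, the nearest of which had 0.92. Such a gap was looked for in 15 sets of clones or cultures, and chance marks about 1 in 20. Without the 4 clones of this line the CAST core of COSN123 clones was still higher, within the range of 0.18 to 0.22 given for lines left out.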

How the results depend on the processing

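The difference at the core kept its direction and moved by less than the SD over clones under all alternatives (1.27 to 1.32, and 1.31 to 1.32 with single clones left out). The stretch was 1.35 Mb long at a threshold of 0.25 and 0.55 Mb at a threshold of 1, and 1.2 Mb with any clone left out. The COSN123 contrast of the core difference passed in every setting, between 0.11 and 0.15 with a clone or line left out and at 0.09 with each profile divided by its SD. On CAST it passed in every setting, between 0.18 and 0.22 with a line left out. On musculus it was 0.10 and passed with libraries as units (permutation p = 0.0227), and between 0.0332 and 0.10 with a line left out, passing without COSN1.2.8k or CR13.4k. The F ratio of lines was 2.05 to 2.93 with a line left out and passed throughout.

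The windows called on CAST (11, with 0.501% genome-wide) were 16 with libraries (2.03% genome-wide), 7 without clones lacking a chromosome (0.527%) and 5 with libraries and a replicate block (0.386%). They were 0 with cell lines (0.00868%) and 11 without the 6 clones of CR13.4k, CR14.6k and Z.B.C (0.71%). With these counted among the clones lacking the sites they were 8 (0.939%), and with a line left out 3 to 14 (0.123% to 1.87%). The larger count with libraries came with a larger share genome-wide. Those of the difference (2, with 0.278% genome-wide) were 1 with trend and robust shrinkage (0.269%), 0 without clones lacking a chromosome (0.102%), 0 with cell lines (0.00437%) and 0 with scaled profiles (0.258%). They were 1 without those 6 clones (0.23%) and 0 with them counted among the clones lacking the sites (0.113%). With the replicate block they were 2 (0.476%), and with a line left out 0 to 4 (0.128% to 0.794%). On musculus the count was 1 with libraries (3.85% genome-wide) and 0 otherwise, the replicate block and every line left out included. The replicate numbers do not pair the samples, as the deviations of 11 clones correlated between −0.11 and 0.21 (median 0.00). The cause of these changes was not tested.

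The relation of the core to Trpc7 was 0.32 within other clones (permutation p = 0.0906). That to the windows right of Dppa was −0.0153 within COSN123 clones and 0.39 within the others (permutation p = 0.043). That to the Dppa domain was −0.00992 within COSN123 clones and −0.42 within the others (permutation p = 0.0252). Within the others both passed by r but not by rho (permutation p = 0.0692 and 0.0645). The p-values within groups were not adjusted. Depth could not be weighed, since only ratios were at hand.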
